A study of Mus musculus with 8 samples.

Results

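The step from 1 h to 3 h of lipopolysaccharide (LPS) was read on 4 of the 8 arrays of a study of RAW264.7 cells, a mouse macrophage-like line established from a virus-induced tumour. The 4 arrays were chosen by LPS time alone: 1 array at 1 h and 1 at 3 h from cells given LPS without melatonin, and 1 at 1 h and 1 at 3 h from cells given melatonin and LPS. LPS was Escherichia coli O55:B5 at 100 ng/ml in all 4 conditions. Melatonin, a pineal hormone also made by immune cells, was given at 1 mM, starting 1 h before LPS, in the arm that received it. The remaining 4 arrays, at 0 h and 5 h of LPS in the same arms, gave the starting level, the next step and part of the error estimate. The question was which genes rose, held or fell between the early and the late time, and how each arm moved.

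LPS, a cell wall component of Gram-negative bacteria, is sensed by macrophages through CD14 and the Toll-like receptor TLR4. The first wave of transcription, the primary response, uses factors already in the cell (NF-kB, serum response factor, CREB) and needs no new protein; it holds the immediate early genes, many cytokines and the inhibitors that limit the signal. The secondary response needs proteins made in that first wave, above all interferon beta, which acts through its receptor and the factors STAT2 and IRF9 on antiviral genes.

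Each condition was a single array, so arms served as the 2 observations of each time. Levels are log2 processed signals minus the log2 75th percentile of the array's spots, so that 0 is the 75th percentile; steps and differences are on the same log2 scale. Over all 8 arrays an additive limma model (LPS time plus melatonin) gave the step with its standard error (SE) and a Benjamini-Hochberg adjusted p over 20076 genes, called under 0.05. A gene was called held where it was not called and its 95% interval lay within 1 log2 of 0. Nothing in the labels says that arrays came from separate experiments, so p-values measure the spread between these arrays, and that spread holds any effect of melatonin that changed with time. All arrays lay on 1 slide with the arms in separate rows and the LPS times in separate columns. LPS time, slide column and hours in culture cannot be told apart, and neither can melatonin and slide row.

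Sample titles were followed for LPS time, because the treatment field of the melatonin samples runs 1 LPS step later than their titles. The level of Egr2, an immediate early gene, was -2.86 on the array titled melatonin without LPS and -1.96 on the array with neither agent, against 4.02 and 3.68 on the arrays titled 1 h with and without melatonin. The array titled as unstimulated thus sat with the unstimulated array. With the treatment field's LPS times no gene was called in the step. Statements below that a gene kept or lost its call under alternative processing leave those times out. The share of probes well above background ran from 49.78% to 52.98% over the 4 arrays, and no spot was saturated. Of 10 macrophage markers, 9 were well above background on all 4 arrays and Mertk was on none. Of the markers of other cells, 4 of 7 for T cells (Cd3e, Cd3d, Lck, Cd4), 2 of 6 for neutrophils (Elane, Camp), 1 of 5 for B cells (Pax5), none for fibroblasts and none for epithelium were well above background on all 4, and Cd8a, Cd2, Cd79a, Ly6g, S100a8 and S100a9 on none. The summed level of the T cell markers was 3.07 and 2.78 at 1 h and 3.45 and 2.87 at 3 h, without and with melatonin. For B cell markers it was -2.32 and -2.71, then -0.91 and -1.38, and for neutrophil markers 0.81 and 0.39, then 0.71 and 0.34, against 9.63 to 10.05 for macrophage markers. Their part in the steps was not tested.

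Between 1 h and 3 h, 1690 genes were raised (8.42% of those tested), 1371 were lowered (6.83%), together 15.2%, and 13169 held (65.6%), with the median gene at 0.04. The counts of every list below are to be set beside these shares. The change was at least 2-fold in 553 of the rises (2.75% of all tested) and 551 of the falls (2.74%). Quantile normalization, which forces arrays to one distribution, turned the split round, from 55.2% of calls raised to 42.7%. All 3061 called genes moved in the same direction in both arms, which the additive fit favours. Over the 17269 genes well above background on all 4 arrays, the arms' steps correlated at r = 0.756 (Spearman's rho = 0.67) as a description across genes, which are not independent and share 2 arrays per arm. The spread of steps was narrower with melatonin, at an SD of 0.52 against 0.662 without it, and the principal axis of the 2 had a slope of 0.729. Of the 1110 genes up by at least 1 log2 without melatonin (5.53% of all tested), 45.4% were up by as much with it; of the 812 up with melatonin (4.04%), 62.1% were up without it. Falls of that size were 1263 (6.29%) without and 827 (4.12%) with melatonin, of which 39.7% and 60.6% were shared, and 21 genes moved by at least 1 log2 in opposite directions.

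**Figure D1:**
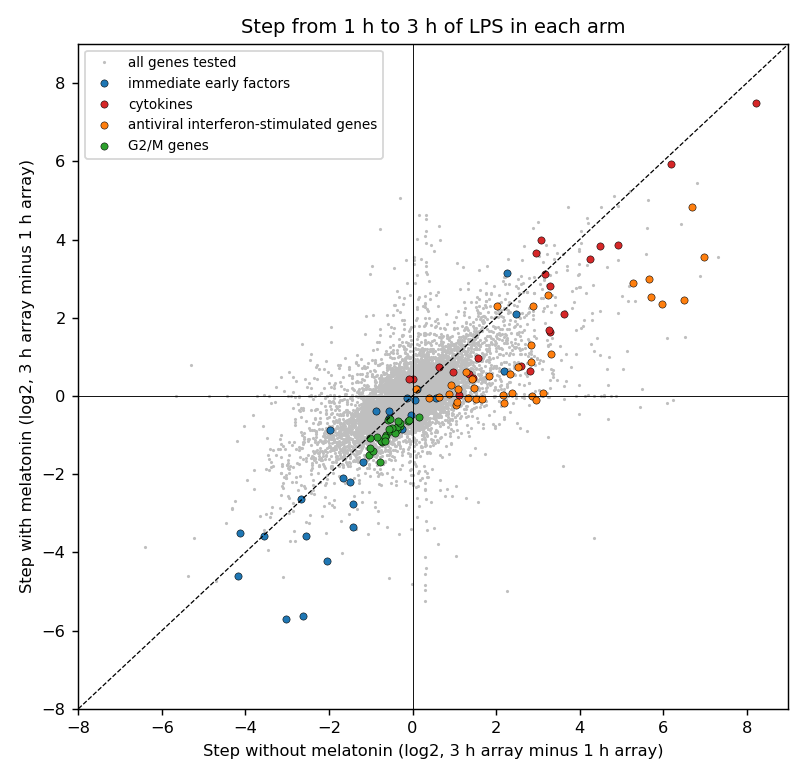
Step from 1 h to 3 h of LPS in the arm without melatonin (x axis, log2) against the arm with melatonin (y axis, log2), 1 point per gene, each step being 1 array minus 1 array. Immediate early factors (blue) lie mostly below 0 in both arms, cytokines (red) above 0, antiviral interferon-stimulated genes (orange) to the right of the dashed line of equal steps, and G2/M genes (green) below 0.

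Of the immediate early factors, transcription factors and other genes switched on within minutes, 13 of 26 measured members were lowered, 1 was raised, 6 held and 6 were none of these. Their median step was -1.43 against 0.04 over all genes. The medians were -1.30 without and -1.27 with melatonin. The list, like all lists here, was chosen with earlier results of these data known. Jun, a subunit of the AP-1 factor, stood at 5.28 at 1 h and 1.73 at 3 h without melatonin, and at 5.80 and 2.21 with it. Both 3 h arrays lay below the unstimulated levels of 2.44 and 2.52, and the fitted step was -3.57 ± 0.13 (SE, 2 arrays a time, adjusted p = 0.00074), an 11.9-fold fall. Its probe lies at chr4:94716928-94716987 (mm9).

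Egr2, a zinc finger factor of the early growth response family, went from 3.68 to 1.14 without melatonin and from 4.02 to 0.44 with it, a step of -3.06 ± 0.33 (adjusted p = 0.00628). Its relative Egr3 went from 2.94 to -1.23 and from 2.34 to -2.27 (step -4.39 ± 0.42, adjusted p = 0.00502), towards unstimulated levels of -1.84 without melatonin and -3.87 with it. Fos, the partner of Jun in AP-1, was higher at 1 h with melatonin (4.09) than without (2.13) and was at -1.61 and -0.89 at 3 h (step -4.36 ± 0.67, adjusted p = 0.0146). Nr4a1, an orphan nuclear receptor, was at 4.82 and 5.16 at 1 h and at 2.19 without and -0.47 with melatonin at 3 h (step -4.13 ± 0.87, adjusted p = 0.0321). In all of these genes the 1 h arrays were above the 3 h arrays in both arms.

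Egr2 is shown because its promoter carries a CArG box, the binding motif of serum response factor, which drives early growth response genes. The 250 bases before one of its 5 RefSeq starts (GRCm38.p6, chr10:67537680-67537929, plus strand) read as follows, with the CArG box in capitals.
Egr2: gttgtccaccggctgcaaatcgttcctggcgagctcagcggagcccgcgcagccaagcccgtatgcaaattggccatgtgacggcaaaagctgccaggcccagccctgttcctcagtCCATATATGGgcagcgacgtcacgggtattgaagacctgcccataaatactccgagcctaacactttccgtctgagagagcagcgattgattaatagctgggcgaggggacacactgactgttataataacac
On either strand, a CArG box stood within 250 bases of the start in 2 of the 19 immediate early factors with a RefSeq promoter (Egr2 and Srf) and in 1.43% of the 11503 tested genes with one.

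Klf10, a zinc finger factor of the TGF-beta pathway, and Arc, a cytoskeleton-associated early gene, fell in near parallel in the arms. Klf10 had not moved by 1 h: it was at 1.12 before LPS and 1.31 at 1 h without melatonin and at 1.10 and 1.33 with it, then at -2.80 and -2.18 at 3 h (step -3.81 ± 0.22, adjusted p = 0.00166). Arc was at 2.95 and 3.94 at 1 h and at -0.50 and 0.01 at 3 h (step -3.69 ± 0.16, adjusted p = 0.000829). Atf3, a repressor of the ATF/CREB family, was the only member called as raised, at 2.69 and 1.07 at 1 h and 5.18 and 3.17 at 3 h (step 2.29 ± 0.39, adjusted p = 0.0182). Myc, a growth factor-induced transcription factor picked after its values were seen, was at -0.24 and -4.20 at 1 h and 2.01 and -1.06 at 3 h. Its step of 2.70 ± 0.90, the highest of the list, did not pass (adjusted p = 0.0986).

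Among these genes Jun, Egr2, Klf10 and Arc kept their call with any 1 of the 8 arrays left out. Egr3, Fos, Nr4a1 and Atf3 each lost it without at least 1 of the 4 arrays of the step, with highest adjusted p between 0.0555 and 0.161. The 13 lowered members of the list became 7 without the 1 h array of the arm lacking melatonin, 5 without its 3 h array, and 6 and 8 without the 1 h and 3 h arrays of the melatonin arm.

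**Figure D2:**
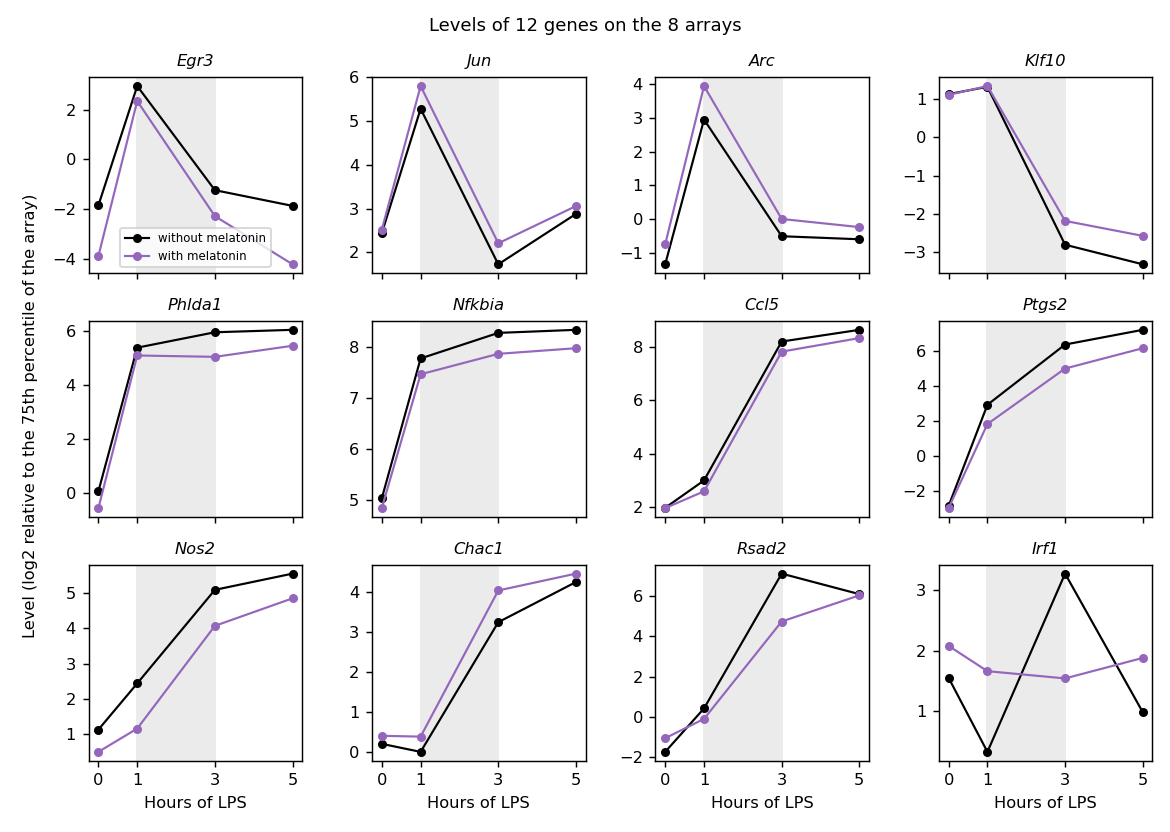
Level (log2 relative to the array's 75th percentile, y axis) of 12 genes against hours of LPS (x axis), 1 point per array, without melatonin (black) and with it (purple); the grey band is the step from 1 h to 3 h. Egr3, Jun and Arc peak at 1 h, Phlda1 and Nfkbia stay near their 1 h level, Ccl5, Ptgs2, Nos2 and Chac1 climb in both arms, and Irf1 climbs only on the 3 h array without melatonin, to 3.28.

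The machinery that limits the signal did not move as one. Of 20 NF-kB subunits and inhibitors 7 were raised, 1 was lowered and 8 held, against 8.42%, 6.83% and 65.6% of all genes tested. Nfkb1, which encodes the p50 subunit, rose from 4.23 to 6.22 without melatonin and from 3.32 to 5.45 with it (step 2.06 ± 0.13, adjusted p = 0.00182). Nfkb2, the p52 precursor, rose by 1.68 ± 0.18 (adjusted p = 0.00659) and the inhibitor Nfkbib by 1.36 ± 0.13 (adjusted p = 0.0052). The classical inhibitor Nfkbia was at 5.03 and 4.84 before LPS and 7.77 and 7.46 at 1 h, and gained 0.45 ± 0.06 more, to 8.27 and 7.86 (adjusted p = 0.0093). Nfkbid, a nuclear inhibitor, was the list's only fall, from 6.58 to 4.96 and from 5.90 to 4.59 (step -1.46 ± 0.10, adjusted p = 0.0022). Tnfaip3, the ubiquitin-editing inhibitor A20, and Nfkbiz, a coactivator of secondary genes, had steps of 0.88 ± 0.38 (adjusted p = 0.174) and -0.02 ± 0.44 (adjusted p = 0.979). Tnfaip3 was called as raised without either 0 h array and on the 4 arrays alone (lowest adjusted p = 0.0193).

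Nfkbid kept its call under every alternative tried; the rise of Nfkb1 was lost where the median of its probes was used (step 0.70, adjusted p = 0.0537), and those of Nfkb2, Nfkbib and Nfkbia without at least 1 of the 4 arrays (highest adjusted p between 0.0565 and 0.0828). The 7 raised members became 6 and 1 without the 1 h and 3 h arrays of the arm lacking melatonin, and 3 and 4 without those of the melatonin arm.

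Of 12 genes of feedback on the MAP kinases 5 were lowered, 1 was raised and 3 held (median step -0.90). The shares over all genes tested were 6.83%, 8.42% and 65.6%, and the 1 raised gene is near its share. Dusp5 and Dusp6, phosphatases that act on ERK, fell by 0.87 and 1.44, and Trib1, a pseudokinase adaptor, fell by 1.83. Dusp1, the phosphatase of p38 and JNK, was at 2.80 and 3.28 at 1 h and 2.14 and 1.90 at 3 h (step -1.02 ± 0.33, adjusted p = 0.0931), which did not pass. The 5 calls became 2, 0, 1 and 1 as the 4 arrays were left out in the order used above. Among 10 factors of mRNA decay, 4 were raised and 4 lowered; with the 4 arrays left out in that order the raised ones numbered 1, 0, 0 and 0 and the lowered ones 1, 2, 1 and 2. Zfp36l2, which binds AU-rich elements in cytokine transcripts, fell 5.92-fold, from 2.61 to -0.12 and from 2.90 to 0.50 (step -2.56 ± 0.23, adjusted p = 0.00431), a call kept under every alternative. Its relative Zfp36 (tristetraprolin) had climbed by 1 h, to 5.91 and 5.35, and was at 4.63 and 3.90 at 3 h (step -1.37 ± 0.30, adjusted p = 0.0341). The endonuclease genes Zc3h12a and Zc3h12c rose by 0.55 and 1.29. Of these decay calls those of Zfp36, Zc3h12a and Zc3h12c ended without at least 1 of the 4 arrays, at highest adjusted p between 0.122 and 0.257. Zc3h12a (adjusted p = 0.0485) kept its call in 4 of 18 alternatives, and lost it without any 1 of the 8 arrays and with quantile normalization.

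Some early genes stayed high. Phlda1, a pleckstrin homology protein, was at 0.05 and -0.57 before LPS, 5.37 and 5.08 at 1 h and 5.94 and 5.03 at 3 h (step 0.27 ± 0.14). Nlrp3, the inflammasome sensor, was at 0.95 and 0.09 at 1 h and 0.85 and 0.48 at 3 h. Ier3, the histone demethylase gene Kdm6b, the cAMP phosphodiesterase gene Pde4b, Dusp4, Csrnp1 and Maff likewise met the criterion for held, with steps between -0.54 and 0.35. Ier3, with a step of -0.47, was called as a fall with quantile normalization, with the values of the authors' deposited table, without either 0 h array and on the 4 arrays alone.

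Chemokines and cytokines had the highest median steps of the 27 lists. Of 22 measured cytokines 12 were raised and 1 held, with a median step of 2.47; of 16 chemokines 12 were raised and 2 held, with a median of 2.52. No member of either list was lowered, against 6.83% of all genes tested, of which 8.42% were raised and 65.6% held. Only 16 of the 22 cytokines and 11 of the 16 chemokines were well above background on all 4 arrays. Steps of the other members rest in part on values near background. Of 26 listed cytokines and 19 listed chemokines, the rest lacked signal on at least 2 of the 8 arrays. A gene could enter through late LPS arrays alone, which favours rises over falls. Ccl5, which attracts T cells and monocytes, rose in both arms alike, from 2.99 to 8.21 without melatonin and from 2.58 to 7.83 with it, a 37.5-fold change (step 5.23 ± 0.10, adjusted p = 6.76e-05; probe at chr11:83339296-83339355, mm9). The arms differed by 0.03 in this step. Ccl2, the main monocyte attractant, rose from 2.50 to 6.33 and from 0.61 to 3.29 (step 3.25 ± 0.26, adjusted p = 0.00329). Lif, a cytokine of the interleukin 6 family, rose from -1.77 to 1.52 and from -2.05 to 0.75 (step 3.04 ± 0.24, adjusted p = 0.00304).

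Il6, the gene for interleukin 6, was at -2.40 and -5.90 at 1 h, when only the array without melatonin was well above background, and at 5.83 and 1.58 at 3 h. The step was 8.23 without melatonin, and the fitted step of 7.86 ± 1.05 (adjusted p = 0.0104) rests in part on a value at background. Il1a, an alarm cytokine, went from -2.62 to 3.58 and from -5.64 to 0.30 (step 6.07 ± 0.85, adjusted p = 0.0116), again with 1 of 2 arrays above background at 1 h. Il1b, its inflammasome-processed relative, was already at 4.56 and 1.62 at 1 h and reached 7.51 and 5.29 (step 3.31 ± 0.49, adjusted p = 0.0133). Levels were lower with melatonin on both arrays of these 3 genes, while the steps differed by between -0.75 and 0.70.

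Tnf, a primary response gene, had done most of its rise by 1 h, from 2.72 to 7.52 and from 2.54 to 6.79, and its step after that was 0.79 ± 0.19 (adjusted p = 0.045). Cxcl2, a neutrophil attractant, went from 4.67 to 6.89 and from 3.13 to 4.71 (step 1.90 ± 0.27, adjusted p = 0.0125), and Cxcl10, an attractant of activated T cells, from 6.4 to 8.70 and from 3.91 to 7.42 (step 2.90 ± 0.40, adjusted p = 0.0108). Ccl7, another monocyte attractant, was on neither array well above background at 1 h and at 0.51 and -2.61 at 3 h. As a mean over both arms it was at least 11.6-fold higher. That bound is set against the lowest signal well above background and need not hold in each arm. Ifnb1, the gene for interferon beta, was at -6.86 and -6.67 before LPS. It was at 0.07 without and -4.19 with melatonin at 1 h, and at 3.15 and -0.21 at 3 h (step 3.53 ± 0.98, adjusted p = 0.0639), which did not pass although both arms were higher at 3 h. It was called with the authors' deposited table, without either 0 h array and on the 4 arrays alone (lowest adjusted p = 0.00877).

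The promoters of Il6 and Cxcl10 are shown because both hold a kappaB motif, GGGANNTTCC, here in capitals, and Cxcl10 also an interferon-stimulated response element (ISRE), GAAANNGAAA. Each is the 250 bases before the RefSeq start, at chr5:30012864-30013113 (plus strand) and chr5:92348890-92349139 (minus strand) in GRCm38.p6.
Il6: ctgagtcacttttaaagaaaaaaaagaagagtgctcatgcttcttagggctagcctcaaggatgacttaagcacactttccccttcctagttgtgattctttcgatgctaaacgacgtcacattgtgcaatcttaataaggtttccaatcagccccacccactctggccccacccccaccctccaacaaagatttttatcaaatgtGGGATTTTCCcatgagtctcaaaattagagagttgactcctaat
Cxcl10: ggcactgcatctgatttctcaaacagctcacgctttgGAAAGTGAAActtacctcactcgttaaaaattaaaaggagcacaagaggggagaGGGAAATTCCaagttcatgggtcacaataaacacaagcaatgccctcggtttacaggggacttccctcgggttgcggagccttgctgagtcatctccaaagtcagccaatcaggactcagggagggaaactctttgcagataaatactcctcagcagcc
The kappaB motif was found on either strand in 3 of 16 cytokine promoters (Il6, Csf1, Ifnb1), 2 of 10 chemokine promoters (Cxcl2, Cxcl10) and 1.5% of promoters of tested genes. Ccl5 was not in the promoter table.

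Ccl5, Ccl2 and Lif kept their calls under every alternative. Il6, Il1a, Il1b, Tnf, Ccl7, Cxcl2 and Cxcl10 lost theirs without at least 1 of the 4 arrays, with highest adjusted p between 0.0852 and 0.234. Cxcl10 also lost its call with the median of its probes. The 12 cytokine calls became 3 and 1 without the 1 h and 3 h arrays lacking melatonin, and 1 and 14 without those of the melatonin arm. For chemokines the same counts were 7, 3, 6 and 7.

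Of 20 antimicrobial and inflammatory enzymes and carriers of the activated macrophage 10 were raised, 4 held and 6 were neither (median step 0.84). Without melatonin 13 were up by at least 1 log2 and with it 7, at medians of 1.29 and 0.51. Ptgs2, the inducible cyclooxygenase of prostaglandin synthesis, rose 9.91-fold, from 2.91 to 6.35 and from 1.81 to 4.98 (step 3.31 ± 0.28, adjusted p = 0.00371). Nos2, the inducible nitric oxide synthase, rose 6.85-fold, from 2.44 to 5.09 and from 1.16 to 4.07 (step 2.78 ± 0.17, adjusted p = 0.00171). Acod1, which makes itaconate, was at 7.73 and 6.75 at 1 h and 9.09 and 8.77 at 3 h (step 1.69 ± 0.18, adjusted p = 0.00623). Slc7a2, a carrier that brings arginine to Nos2, was well above background on neither array at 1 h and on both at 3 h. As a mean over both arms it was at least 7.6-fold higher. The prostaglandin E2 receptor gene Ptger2 and the adenosine receptor gene Adora2b, both coupled to cAMP, rose by 3.05 ± 0.23 (adjusted p = 0.00286) and 1.87 ± 0.14 (adjusted p = 0.00281).

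Of 12 costimulation and adhesion genes 8 were raised (median step 1.54). Cd40, the receptor for T cell help, rose 11.7-fold, from -1.14 to 2.84 and from -1.75 to 1.35 (step 3.54 ± 0.24, adjusted p = 0.00206), and Cd274, the checkpoint ligand PD-L1, from -2.98 to 1.01 and from -2.30 to 0.49 (step 3.39 ± 0.34, adjusted p = 0.00551). Of 27 genes of Toll-like receptor signalling 11 were raised, 1 was lowered and 11 held, against 8.42%, 6.83% and 65.6% of all genes tested. Ripk2, the kinase of NOD receptors, rose by 2.0 ± 0.16 (adjusted p = 0.00319). Irak3, a brake on the receptor's kinase complex, rose by 2.02 ± 0.32 (adjusted p = 0.016), and Ikbke, a kinase upstream of IRF3, by 2.54 ± 0.29 (adjusted p = 0.00732). Of 11 SOCS and STAT3 genes 6 were raised; Socs3, the inhibitor of interleukin 6 signalling, rose by 1.58 ± 0.18 and Cish by 3.59 ± 0.43. The survival gene Bcl2l1 rose by 2.38 ± 0.21 (adjusted p = 0.00404) while its relative Bcl2 fell by 1.09, a call lost with the median of its probes.

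Ptgs2, Nos2, Ptger2, Adora2b, Cd40, Cd274, Ripk2 and Bcl2l1 kept their calls under every alternative. Acod1, Slc7a2, Irak3, Ikbke, Socs3, Cish and Bcl2 lost theirs without at least 1 of the 4 arrays, at highest adjusted p between 0.0505 and 0.124. Without those arrays, in the same order, the enzyme calls numbered 3, 3, 3 and 9, those of costimulation 6, 4, 4 and 6, those of Toll-like receptor signalling 6, 1, 2 and 8, and those of SOCS and STAT3 5, 0, 2 and 6.

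The antiviral interferon-stimulated genes moved unequally between the arms. In the fit over both arms 12 of 36 were raised, 3 held and 21 were neither (median step 1.32), against 8.42% raised and 65.6% held of all genes tested. Without melatonin 31 of 36 were up by at least 1 log2 between 1 h and 3 h and the median step was 2.26; with melatonin 12 were, and the median was 0.36. The step was smaller with melatonin in 34 of 36 members, against 49.4% of all genes tested, the exceptions being Oasl1 and Slfn5. Each arm's step is 1 array minus 1 array, so these members are not separate observations of melatonin. No gene passed the test of the melatonin by step term over all genes (0 of 20076, lowest adjusted p = 0.994), so no single member's difference was called. That test had 2 residual degrees of freedom. At an unadjusted p under 0.05 it took 700 of the 20076 genes tested, 24 of these 36 among them.

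Rsad2, the antiviral enzyme viperin, was at 0.42 and -0.10 at 1 h and at 7.12 without and 4.74 with melatonin at 3 h (step 5.77 ± 0.67, adjusted p = 0.00753). Mx1, a dynamin-like antiviral GTPase, went from -2.69 to 4.28 without melatonin and from -1.74 to 1.81 with it (step 5.26 ± 0.79, adjusted p = 0.0137). Ifit1, which binds foreign RNA ends, went from -0.71 to 4.95 and from -0.87 to 2.12 (step 4.32 ± 0.76, adjusted p = 0.02). Its neighbour Ifit3 went from -2.37 to 4.14 and from -1.68 to 0.77 (step 4.48 ± 0.98, adjusted p = 0.0351). Isg15, a ubiquitin-like modifier, was closer between arms, from 5.24 to 8.12 and from 4.65 to 6.95 (step 2.59 ± 0.31, adjusted p = 0.00804). In each of these genes the arms overlapped at 1 h to within about 1 log2 and the 3 h array with melatonin was the lower one. The Ifit genes are close copies, and whether each probe reads 1 of them alone was not tested.

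Several members stood at their 1 h level on the 3 h melatonin array. Oasl2, of the oligoadenylate synthetase family and picked after its values were seen, was at 0.45 and 3.32 without melatonin and at 0.35 and 0.34 with it. Stat2, a subunit of the interferon-activated factor and also picked so, was at 1.12 and 3.31 without and 1.85 and 1.68 with melatonin. Irf1, a factor induced by interferon and NF-kB, was at 0.32 and 3.28 without and 1.66 and 1.54 with melatonin (step 1.42 ± 0.70, adjusted p = 0.217). Among genes with a symbol that were well above background on all 4 arrays, ranked by the step with melatonin minus the step without as a description with no test, the 8 lowest were Ifit3b (-5.02), Ifit3 (-4.06), Ifi209 (-3.70), Ifit2 (-3.65), Mx1 (-3.42), Tmem140 (-3.27), Cmpk2 (-3.19) and Tgtp2 (-3.07). The largest positive difference among them was that of Hpdl, a dioxygenase-like protein, at 3.21: 0.57 and -2.81 without and -0.85 and -1.02 with melatonin.

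The guanylate-binding proteins and immunity-related GTPases, which attack the vacuoles of intracellular microbes, showed the same inequality: 4 of 12 were raised, and all 12 were up by at least 1 log2 without melatonin against 4 with it (medians 2.95 and 0.70). All 12 steps were smaller with melatonin, against 49.4% of all genes tested, but here too the members are not separate observations of melatonin. Only 7 of the 12 genes were well above background on all 4 arrays. Steps of the other members rest in part on values near background. Gbp2 was well above background on neither array at 1 h and stood at 1.56 without and -1.32 with melatonin at 3 h (adjusted p = 0.00383). As a mean over both arms it was at least 25.9-fold higher, a bound that need not hold in each arm. Gbp7 went from -3.76 to 1.39 and from -3.56 to -1.15 (step 3.78 ± 0.65, adjusted p = 0.0187). Of 12 genes of MHC class I processing, also interferon targets, none was called and 10 held, against 65.6% of all genes tested, with medians of 0.27 without and -0.04 with melatonin.

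Relative to 0 h of the same arm, the antiviral genes' median was -0.04 at 1 h, 2.1 at 3 h and 2.34 at 5 h without melatonin, and -0.07, 0.32 and 1.42 with it. For the GTPases it was -0.11, 2.97 and 3.32 without and -0.17, 0.54 and 1.48 with melatonin. The medians of both lists were thus near their starting level at 1 h in both arms, and the melatonin array at 5 h was above that at 3 h. Single members could differ: Rsad2 was already 2.16 above 0 h at 1 h without melatonin.

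**Figure D3:**
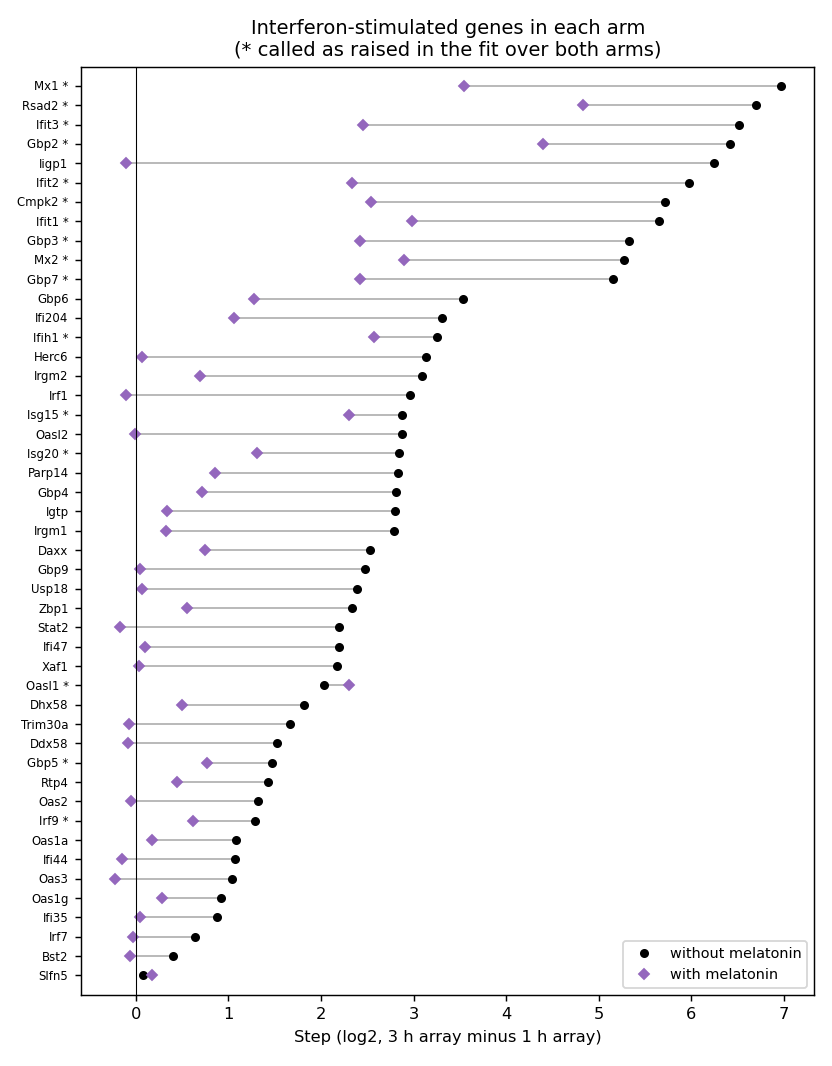
Step from 1 h to 3 h of LPS (log2, 3 h array minus 1 h array, x axis) of 35 antiviral interferon-stimulated genes and 12 GTPases, without melatonin (black circles) and with it (purple diamonds), joined by a line; an asterisk marks genes called as raised over both arms. The purple point lies left of the black one in 45 of 47 genes.

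Promoters of 3 raised genes are shown because they hold the ISRE motif, GAAANNGAAA, in capitals. Each is the 250 bases before the RefSeq start in GRCm38.p6, at chr12:26456453-26456702 (minus strand) for Rsad2, chr19:34640639-34640888 (plus strand) for Ifit1 and chr3:142620413-142620662 (plus strand) for Gbp2.
Rsad2: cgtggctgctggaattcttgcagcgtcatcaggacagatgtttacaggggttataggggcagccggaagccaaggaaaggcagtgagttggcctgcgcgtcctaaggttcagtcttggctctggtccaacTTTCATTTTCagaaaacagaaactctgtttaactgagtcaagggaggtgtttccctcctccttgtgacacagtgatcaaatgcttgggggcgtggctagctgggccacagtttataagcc
Ifit1: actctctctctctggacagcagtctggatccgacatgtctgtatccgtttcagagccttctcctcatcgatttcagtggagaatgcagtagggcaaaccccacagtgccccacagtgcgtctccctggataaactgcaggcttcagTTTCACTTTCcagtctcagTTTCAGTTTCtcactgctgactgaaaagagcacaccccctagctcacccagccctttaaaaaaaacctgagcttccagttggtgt
Gbp2: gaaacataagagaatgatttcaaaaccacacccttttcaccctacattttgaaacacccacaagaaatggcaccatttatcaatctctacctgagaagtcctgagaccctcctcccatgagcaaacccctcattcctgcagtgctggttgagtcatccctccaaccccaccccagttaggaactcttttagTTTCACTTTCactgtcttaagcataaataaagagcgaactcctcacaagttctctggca
On either strand, the motif was in 11 of 26 antiviral genes with a promoter in the table (42.3%), in 7 of 8 of the GTPases (87.5%) and in 3.4% of tested genes with one. A match is a run of letters and shows no binding.

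Rsad2, Mx1, Ifit1, Ifit3, Isg15 and Gbp7 lost their calls without at least 1 of the 4 arrays (highest adjusted p between 0.0618 and 0.211), while Gbp2 lost it only where all arrays were given a common floor (adjusted p = 0.0537). The counts turned on each of the 4 arrays. The 12 raised antiviral genes became 1 and 4 without the 1 h and 3 h arrays lacking melatonin, and 1 and 26 without those of the melatonin arm. The 4 raised GTPases became 1 and 1, and 1 and 8, and were 0 with a common floor. With the melatonin by step term in the model the counts were 21 and 8. The level of Ifnb1 was lower with melatonin at both times (0.07 and 3.15 without, -4.19 and -0.21 with it), but unlike the steps of these lists its step was larger with melatonin, at 3.99 against 3.08; its part in the result was not tested.

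Targets of ATF4, the factor of the amino acid and stress response, included 10 raised and 7 held genes of 19 measured (median step 0.60; 0.69 without and 0.52 with melatonin). Chac1, which degrades glutathione, rose 10.8-fold, from 0.01 to 3.24 without melatonin and from 0.39 to 4.03 with it (step 3.43 ± 0.16, adjusted p = 0.000829). Trib3, a pseudokinase that feeds back on ATF4, rose from -0.45 to 2.45 and from 0.33 to 3.36 (step 2.97 ± 0.10, adjusted p = 0.00074). Cth, which makes cysteine, rose from -4.01 to -1.73 and from -2.51 to -0.39 (step 2.20 ± 0.14, adjusted p = 0.00182). Here the arrays with melatonin were the higher ones at 1 h and at 3 h alike. Chac1, Trib3 and Cth had not moved by more than 0.5 log2 from their unstimulated level at 1 h and kept their calls under every alternative; the list's 10 calls became 7, 5, 6 and 8 as the 4 arrays were left out. Of 14 chaperones of the unfolded protein response 11 held, against 65.6% of all genes tested, 1 was raised and 1 lowered. Of 20 ribosome biogenesis genes 11 were raised and 9 held, with a median of 0.36. Polr1b, a subunit of RNA polymerase I, rose by 0.81 ± 0.15 (adjusted p = 0.0219). It was called in 12 of 18 alternatives (lowest step 0.36), and not with the median of its probes. Those 11 calls became 0, 0, 0 and 3 without the arrays in turn.

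Among cell cycle genes none was raised. Of 27 G1/S genes 11 were lowered, 9 held and 7 were neither (median step -0.63), and of 25 G2/M genes 8 were lowered, 5 held and 12 were neither (median -0.70). Tk1, the thymidine kinase of DNA synthesis, fell from 4.19 to 1.80 and from 3.73 to 1.46 (step -2.33 ± 0.23, adjusted p = 0.0052). E2f2, an activator of S phase genes, fell from 2.13 to -1.01 and from 2.07 to 0.11 (step -2.55 ± 0.39, adjusted p = 0.0144). Mki67, the proliferation antigen, fell from 5.48 to 4.45 and from 5.07 to 3.57 (step -1.26 ± 0.19, adjusted p = 0.0143). The G2/M median was -0.56 without and -0.90 with melatonin. The step was lower with melatonin in 25 of 25 members, against 49.4% of all genes. Each arm's step is 1 array minus 1 array, so the members are not separate observations of melatonin. The melatonin by step term called 0 of the 25, and 0 had an unadjusted p under 0.05 in that limma test. The G1/S medians ran the other way, -0.73 and -0.47. All 3 genes lost the call without at least 1 array (highest adjusted p between 0.0561 and 0.109), and the counts became 1, 0, 1 and 3 for G1/S and 0, 0, 0 and 0 for G2/M without the 4 arrays in turn. Without either 5 h array they were 18 for G1/S and 18 for G2/M.

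Some lipid genes fell. Abcg1, the sterol efflux transporter induced by LXR, fell 8.55-fold, from 2.09 to -1.28 and from 3.36 to 0.53 (step -3.10 ± 0.21, adjusted p = 0.0022). Lpin1, a phosphatidate phosphatase, fell from -0.13 to -3.09 and from 0.61 to -1.99 (step -2.78 ± 0.18, adjusted p = 0.00196), and Insig1, which holds the sterol sensor in the endoplasmic reticulum, by 1.15 ± 0.10 (adjusted p = 0.00365). Lpl, the lipoprotein lipase, rose by 1.5 ± 0.11 (adjusted p = 0.00279), a call lost with the median of its probes (step 0.65). Of 22 genes of cholesterol synthesis and its control 6 were lowered, 1 was raised and 14 held. Over all genes tested 6.83% were lowered, 8.42% raised and 65.6% held, and the 14 held are near that share. Of 12 LXR and PPAR genes 4 were lowered (33.3%) and 2 raised (16.7%), against the same shares. Rarb, the retinoic acid receptor beta, fell 11.2-fold, from 2.64 to -0.91 and from 2.75 to -0.67 (step -3.49 ± 0.23, adjusted p = 0.00215).

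Bhlhe40, a repressor that also acts on the circadian clock, had climbed by 1 h and fell from 1.07 to -1.33 and from 0.12 to -1.71 (step -2.11 ± 0.16, adjusted p = 0.00281), beside 5 of 16 clock genes lowered and 2 raised. Of 13 p53 targets 4 were lowered; Sesn1, which restrains mTORC1, fell by 2.20 ± 0.21 (adjusted p = 0.00504). Of 18 genes of macrophage identity and uptake 7 were lowered, 1 was raised and 5 held. For the clock, p53 and macrophage lists alike, the lowered, raised and held shares over all genes tested were 6.83%, 8.42% and 65.6%. The 2 raised clock genes (12.5%) are near their share. Cx3cr1, the fractalkine receptor, fell from 5.22 to 3.93 and from 4.40 to 3.38 (step -1.16 ± 0.13, adjusted p = 0.00684). Msr1, the scavenger receptor, rose by 0.92 ± 0.12.

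Abcg1, Lpin1, Insig1, Rarb and Bhlhe40 kept their calls under every alternative, whereas Sesn1, Cx3cr1 and Msr1 lost theirs without at least 1 of the 4 arrays (highest adjusted p between 0.055 and 0.0839). Counts of lowered genes, with the arrays left out in the same order, were 1, 1, 1 and 4 for cholesterol synthesis, 1, 1, 1 and 3 for LXR and PPAR genes, 1, 1, 1 and 2 for the clock, 2, 2, 2 and 4 for p53 targets and 0, 3, 1 and 2 for macrophage identity, which was at 4 without either 0 h array.

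**Figure D4:**
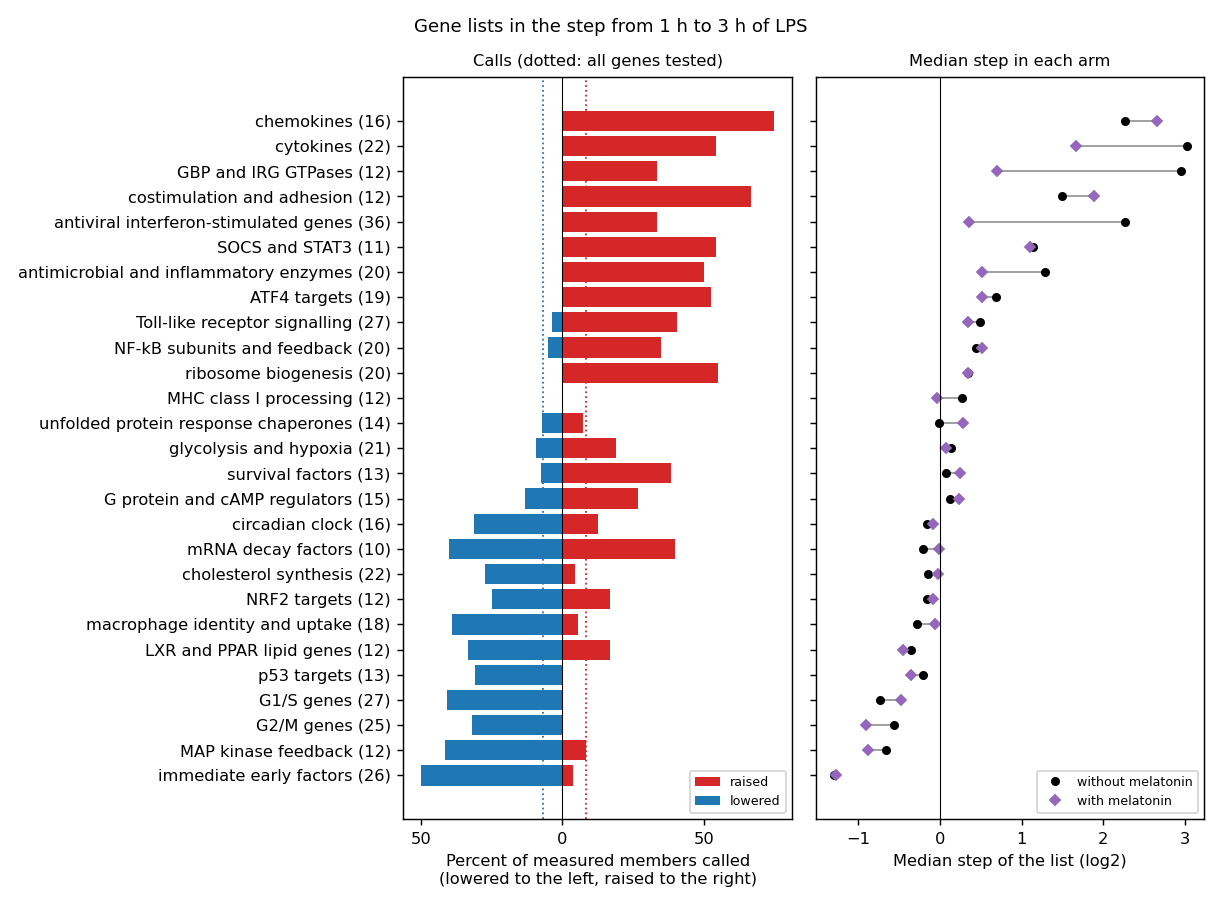
Left, percent of each list's measured members (number in brackets) raised (red, to the right) or lowered (blue, to the left), with dotted lines at 8.42% and 6.83% for all genes tested. Right, the list's median step (log2) without melatonin (black) and with it (purple); the arms part most in the antiviral genes, at 2.26 and 0.36, and the GTPases, at 2.95 and 0.70.

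To read early genes without the array that chose them, genes at least 2 log2 above 0 h on the 1 h array of one arm were followed in the other arm, which shares no array with it. The 248 chosen without melatonin were read with melatonin: 32.7% were up by at least 1 log2 from 1 h to 3 h, 11.7% down and 55.6% within 1 log2, against 4.04%, 4.12% and 91.8% of all genes. For the 197 chosen with melatonin and read without it the shares were 27.9%, 14.7% and 57.4%, against 5.53%, 6.29% and 88.2%. In both directions more of the chosen genes were up than down by 1 log2 (median steps 0.38 and 0.31). Only 110 genes were chosen both ways, and the shares within 1 log2 do not describe genes that were early in the arm read: of the 138 and 113 genes within 1 log2, 60 and 48 had been up by less than 1 log2 at 1 h there. Of the 81 and 55 genes up, 21 and 8 had been, and of the 29 and 29 down, 1 and 3.

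**Figure D5:**
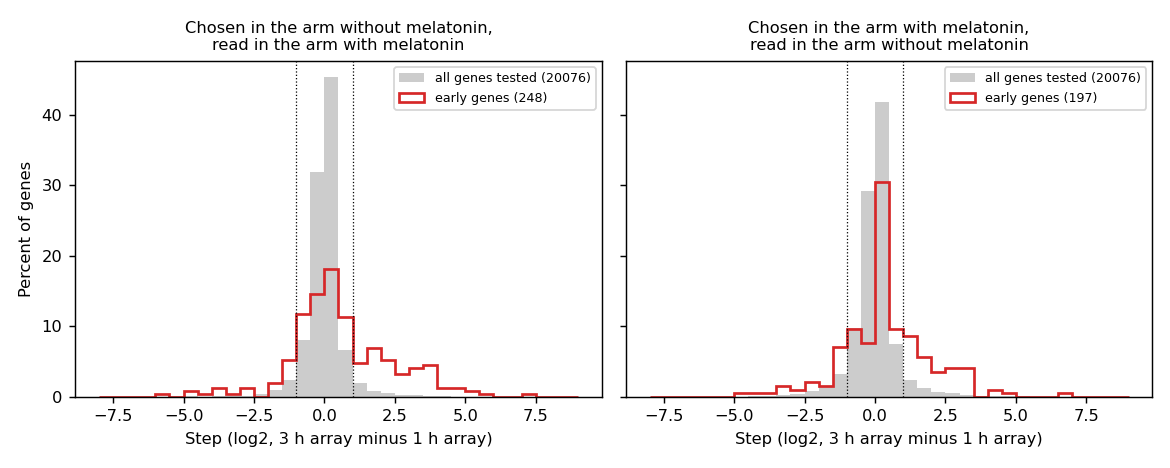
Distribution of the step from 1 h to 3 h (log2, x axis, bins of 0.5) as percent of genes (y axis), for all 20076 genes (grey) and for early genes chosen in the opposite arm (red), with dotted lines at -1 and 1. The red outline reaches farther on both sides than the grey bars, and farther above 1 (32.7% and 27.9%) than below -1 (11.7% and 14.7%).

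The step was also set against the next one, from 3 h to 5 h, in a single contrast (both use the 3 h arrays). It was higher than the next step in 58 genes (0.289%) and lower in 33 (0.164%). Ccl5 rose by 5.23 and then stayed at 8.65 and 8.34 (difference of the steps 4.75, adjusted p = 0.00534). Zbtb46, a factor of dendritic cells, went from -2.40 to 0.90 and from -2.73 to 0.35, then stood at 0.07 and -0.43 (difference 3.99, adjusted p = 0.018), and Ptger2 from 1.70 and 1.24 at 3 h to 0.59 and 0.35 (difference 4.06, adjusted p = 0.0363). Urah, an enzyme of urate breakdown, rose 29.6-fold, from -2.05 to 2.86 and from -2.61 to 2.25 (step 4.89 ± 0.10, adjusted p = 6.76e-05), and was at 4.39 and 4.01 at 5 h (difference 3.25, adjusted p = 0.012). On the falling side Jun was back at 2.88 and 3.06 at 5 h (difference -4.57, adjusted p = 0.0107), and Arc stayed low, at -0.59 and -0.23 (difference -3.52, adjusted p = 0.02). Hmox1, the heme oxygenase, dipped from 4.13 and 3.97 to 3.33 and 3.43 and was at 4.42 and 4.17 at 5 h (difference -1.58, adjusted p = 0.0393). These calls rest on few arrays: the 91 in all ranged from 0 to 94 with 1 array left out.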

How the data were processed

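Total RNA was hybridised to 8 1-colour (Cy3) Agilent arrays, 1 per condition. Per the file headers, the deposited processed signal intensities had been background-subtracted and detrended within each array by the scanner software; the submitters' processing notes name Agilent Feature Extraction 12.0.3.1. The authors' deposited value table holds log2 values whose columns share one sorted set, as quantile normalization leaves them, and was an alternative here. Probe positions are those of the files (mm9); exon and UTR annotation was not used here.

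Of 62976 spots, 3671 controls and those marked as outliers were dropped; intensities were scaled to the array's 75th percentile and log2-transformed, and spots of a probe were averaged. A probe had to be well above background on at least 2 arrays; a gene was read from its brightest probe (30417 probes, 20076 genes). Of 56605 probes, 32994 matched a RefSeq accession (GRCm38.p6), 1535 symbols were updated and 10314 probes had none. Bounds for genes below background compare the mean of both arms at the brighter time with the mean of the arrays' lowest signals well above background. They need not hold in each arm. Precision is set by how few arrays there are.

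Fits used limma 3.58.1 in R 4.3.3 with an intensity trend (3 residual degrees of freedom, 2 with the melatonin by step term). They were run on simulated arrays with known steps and independent noise, to check that set steps are recovered. That simulation held no array effect, so it does not bear on the reliability of the calls. Genes named are the largest called rises and falls overall and in each list, a fixed panel, and the largest differences between arms and between successive steps. Also named are the held genes with the highest rise at 1 h over 0 h, taken as the lower of the 2 arms. Members and lists were chosen with earlier results of these data known. A few genes that this choice would name are not reported here. Alternatives covered scaling, background, source of values, filter, floor, probe choice, trend, model and left-out arrays. The LPS times of the treatment field were added after seeing the data.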

Additional observations from a re-analysis of the deposited data

Results flagged for a closer look

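In 15 of the named genes the steps of the arms from 1 h to 3 h had opposite signs. In several of them 1 arm hardly moved. The steps without and with melatonin were 3.26 and -0.02 for Tmem140, 0.64 and -0.03 for Irf7, and -2.20 and 0.07 for Smgc. Each arm is 1 array minus 1 array, and the difference was not tested beyond the melatonin by step term, which called none. The step with melatonin minus the step without was -3.27 for Tmem140, -3.07 for Irf1 (2.96 without and -0.11 with melatonin) and -2.75 for Rgs1, a regulator of G protein signalling, which went from -0.26 to 1.72 without and from -1.54 to -2.30 with melatonin. It was positive for Opn3 (2.65), Smgc (2.27), Pax5 (2.20), Notch4 (2.11), Lyrm9 (2.09), Sipa1l2 (2.08), Gpr84 (0.98) and Nlrp3 (0.50). The other 4 were Irf7 (-0.67), Phlda1 (-0.61), Dusp4 (-0.56) and Nfkbiz (-0.23). Opn3, Smgc and Lyrm9 had their highest level of all 8 arrays on the 1 h array without melatonin, at -0.67, -1.56 and -2.26, against -2.89, -3.97 and -3.84 on the 1 h array with it.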

How the results depend on the processing

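The step's 3061 calls (1690 raised, 1371 lowered) stayed within 1.5 times under most alternatives. They numbered 1664 with no filter (978 raised, 686 lowered), 1682 with no intensity trend (868 and 814) and 1977 on the 4 arrays alone (947 raised); with a common floor 894 were lowered. With 1 array left out they ran from 325 (the melatonin 1 h array) to 2934, raised from 203 to 1452 and lowered from 120 to 1487; without the 1 h and 3 h arrays lacking melatonin and the melatonin 3 h array they were 364, 338 and 1704. Raised calls were 55.2% in the fit reported, 42.7% with quantile normalization, 42.9% with the authors' deposited table and 49.2% to 67.0% with 1 array left out. Of 127 named calls, 29 stood under every alternative run other than the treatment field's LPS times, and 33 with any 1 array left out. With the treatment field's LPS times, an alternative added after seeing the data, limma called 0 genes (0 raised, 0 lowered), with 1207 at an unadjusted p under 0.05. That fit left out the melatonin array titled 5 h and had no 0 h array with melatonin, so its count also reflects fewer arrays. The melatonin by step term called 0 genes under each alternative run; it could not be fitted without any of the 4 arrays of the step.

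Among the lists, no filter, a common floor and no trend gave 7, 6 and 6 raised antiviral genes (12 reported), 2, 0 and 2 GTPases (4), 3, 3 and 3 lowered G2/M genes (8), 3, 3 and 3 of MAP kinase feedback (5), 1, 1 and 1 of mRNA decay (4), 3, 3 and 2 of cholesterol synthesis (6) and 2, 2 and 2 of macrophage identity (7). Requiring signal on all 8 arrays left 7 cytokine and 7 chemokine calls of 12 each, and no trend 4 raised genes of NF-kB (7) and 5 of ribosome biogenesis (11).

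The contrast of successive steps called 91 genes, but 9 with no filter, 0 with a common floor, 37 with the median of probes, 6 with no trend and 0 to 94 with 1 array left out. For early genes read in the opposite arm, choosing at 1 log2 gave 26.2% up and 7.66% down with melatonin and 21.4% up without it, and normexp background 22.5% down without it. Among single genes, the median of probes turned Traf6 (0.08, from a called -0.69) and Sipa1l2 (-1.14). The others that turned were uncalled, with ranges over left-out arrays of -0.39 to 1.61 for Rgs1, -0.32 to 1.30 for Sipa1l2, -0.05 to 0.34 for Dusp4, -0.35 to 0.30 for Nfkbiz, -1.85 to 0.19 for Lyrm9, -2.27 to 0.04 for Opn3, -0.07 to 0.76 for Gpr84, -0.05 to 0.50 for Il12b, -0.09 to 0.37 for Nlrp3, -0.66 to 0.89 for Notch4 and -0.16 to 1.85 for Pax5. The cause was not tested, apart from the fewer arrays or genes that some alternatives use. No paired analysis was possible because no condition has a second array to pair by replicate number; the matching of 3 h to 1 h arrays by arm is the melatonin term, which the fits already hold. Genes near background at 1 h, such as Il6, Il1a and Ccl7, have steps limited by signal over background.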
